A study of Mus musculus with 21 samples.

Results

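The interleukin-1 family and inflammasome genes followed here are 10 genes, *Il1a*, *Il1b*, *Il1rn*, *Il1r1*, *Il1r2*, *Il1rap*, *Il18*, *Il18bp*, *Casp1* and *Nlrp3*, taken by name from the 34236 gene symbols of a count table, in which each has 1 row. They were measured by RNA-seq in 21 libraries of macrophages (Mϕ) that were F4/80+CD64+ and sorted from kidneys of male C57BL/6J mice, labelled as 24 weeks old with a sort time of 5 h. One group of mice had renal artery stenosis (RAS), a cuff that narrows the artery of the kidney, placed at an age of 20 weeks by the study's methods, and the other had the artery exposed without a cuff (Sham). The populations were CD11chi Mϕ (3 Sham and 4 RAS libraries) and CD11clo Mϕ (3 Sham and 4 RAS), both labelled as derived from monocytes, and kidney-resident macrophages (KRM; 4 Sham and 3 RAS), which have intermediate CD11b and CD11c. No genotype other than the strain is given, and the sort was on live CD45+ cells, CD45 being a leukocyte marker, and left out cells stained for Ly6G, CD3 or NK1.1. The study's methods count fewer RAS libraries of both monocyte-derived populations than the deposited tables hold, without saying which was left out, and all are used here. The study gives the sizes of the Sham groups as mice, but no source used here ties a library to a mouse or says whether cells were pooled, so the p-values measure the spread between these libraries, which may be partly technical. Expression is given as CPM, counts scaled to library size with TMM factors. Fold changes are log2 differences with their standard error (SE). A gene was called when edgeR's quasi-likelihood test gave an adjusted p under 0.05 over all genes tested.

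Interleukin-1α (*Il1a*) and interleukin-1β (*Il1b*) are ligands of the receptor IL1R1, which signals through MyD88 together with the accessory chain IL1RAP. The receptor antagonist (*Il1rn*) occupies IL1R1 without signalling, and IL1R2 is a decoy that binds ligand but lacks the signalling domain. NLRP3 is a cytosolic sensor that assembles an inflammasome in which caspase-1 (*Casp1*) cleaves the precursors of interleukin-1β and interleukin-18, and the binding protein encoded by *Il18bp* neutralises secreted interleukin-18. None of these steps after transcription was measured here. Macrophages and monocytes are major sources of the ligands in inflamed kidney.

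Library totals ranged from 6891137 to 18592376 counts, and a gene at 0 counts could hold 3 or fewer, counting error alone considered. All replicates of a group differed by more than counting noise. Of the 7 macrophage markers, the 6 found under their names summed to 1348 to 7246 CPM over the 21 libraries. Replicate 1 of the RAS group stood nearer to Sham than to the other RAS libraries in all 3 populations, with a root mean square distance in log2 CPM to the Sham mean and to the other RAS libraries of 0.786 and 1.04 in CD11chi Mϕ, 0.934 and 1.19 in CD11clo Mϕ, and 0.928 and 1.60 in KRM. The other 8 RAS libraries were nearer to their own group. RAS results of the 10 genes are therefore given with all libraries and with RAS replicate 1 left out, a choice made after seeing the data. A second deposited table holds log2(TPM + 1) values, in which each library's column correlated with its counts at r = 0.886 to 0.976 over 8273 genes, except KRM RAS replicate 1 at 0.0712, so that column is left out of the levels below.

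On the per-length scale of the log2(TPM + 1) table, which allows levels of different genes to be set side by side, *Il1b* had the highest mean of the 10 genes in all 6 groups. In KRM from Sham kidneys its level was 10.54 ± 0.11 (SD, n = 4), followed by *Casp1* at 6.71 ± 0.12 and *Il18* at 5.21 ± 0.06. *Il1a* at 1.76 ± 0.21 and *Il1rn* at 1.44 ± 0.19 were near the bottom of the same KRM, above *Il1r1* at 0.35 ± 0.08. The order was different in CD11clo Mϕ from Sham kidneys (n = 3), where *Il1r2* and *Il1rn* had levels of 5.96 ± 0.64 and 5.54 ± 0.36 and stood next below *Il1b* and *Casp1*. *Nlrp3* there, at 5.44 ± 0.34, differed from *Il1rn* by less than their spread. *Il1r2* and *Nlrp3* in Sham KRM, at 4.69 ± 0.24 and 4.68 ± 0.28, differed by less than their spread, as did *Il1a* and *Il18bp* in Sham CD11chi Mϕ, at 3.38 ± 0.37 and 3.29 ± 0.09. *Il1r1*, the signalling receptor, had the lowest mean level in 5 of the 6 groups, and *Il1rap* in the remaining one, RAS KRM, where the levels of *Il1rap* (2.79 ± 0.42) and *Il1r1* (3.17 ± 0.19, SD, n = 2) differed by less than their spread.

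**Figure D1:**
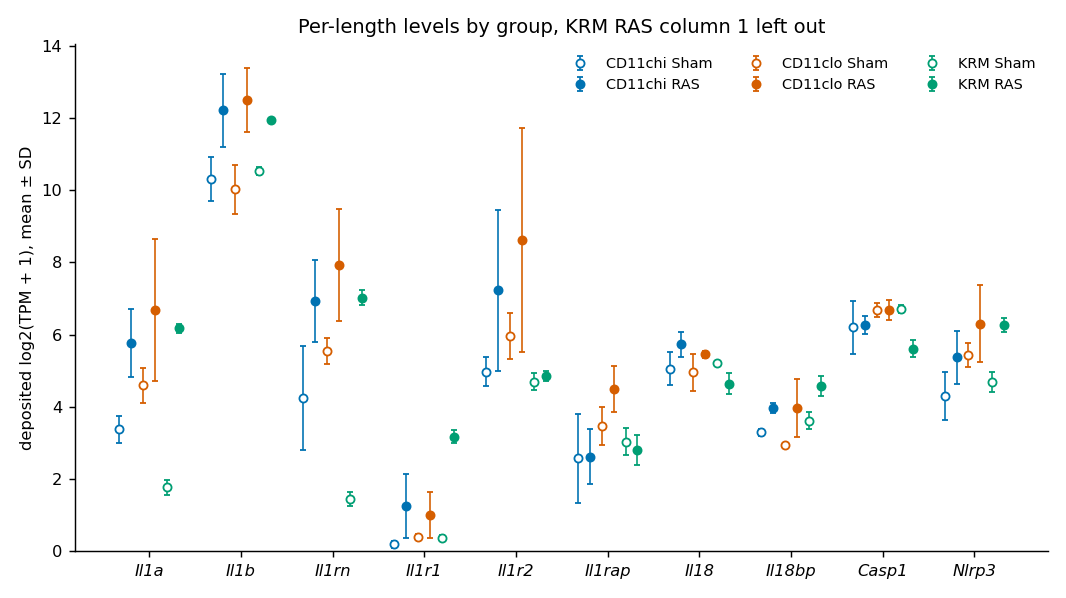
Deposited log2(TPM + 1) values (vertical axis) of the 10 genes (horizontal axis) as the mean of each group, with error bars of 1 SD over 2 to 4 libraries. Open points are Sham and filled points RAS, in blue for CD11chi Mϕ, orange for CD11clo Mϕ and green for KRM. *Il1b* lies highest in every group, at 10.54 in Sham KRM and 12.51 in RAS CD11clo Mϕ.

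The genes of both interleukin-1 ligands and of the antagonist lie on chromosome 2, at chr2:129299610-129309972 (*Il1a*), chr2:129364570-129371139 (*Il1b*) and chr2:24336853-24351494 (*Il1rn*) in GENCODE vM21 on GRCm38. The others are *Il1r2* (chr1:40074079-40125231) and *Il1r1* (chr1:40225080-40317257), which are neighbours, *Il1rap* (chr16:26581704-26730117), *Casp1* (chr9:5298517-5307265), *Il18* (chr9:50554827-50581840), *Il18bp* (chr7:102014885-102018690) and *Nlrp3* (chr11:59541568-59566956). For *Il1a*, *Il1b* and *Il1rn* the 250 bases before the RefSeq start site, on GRCm38.p6 and 5′ to 3′ on the gene's strand, are shown because these genes encode the ligands and the antagonist on which the comparisons below turn. Capitals mark matches, on either strand, to TGANTCA (an AP-1 site) and GAGGAA (the core bound by PU.1, a macrophage factor).
Il1a (chr2:129309973-129310222, minus strand): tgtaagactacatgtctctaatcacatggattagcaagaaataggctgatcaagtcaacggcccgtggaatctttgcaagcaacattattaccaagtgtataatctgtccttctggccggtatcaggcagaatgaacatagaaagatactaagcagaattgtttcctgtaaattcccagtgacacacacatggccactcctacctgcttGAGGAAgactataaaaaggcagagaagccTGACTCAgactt
Il1b (chr2:129371140-129371389, minus strand): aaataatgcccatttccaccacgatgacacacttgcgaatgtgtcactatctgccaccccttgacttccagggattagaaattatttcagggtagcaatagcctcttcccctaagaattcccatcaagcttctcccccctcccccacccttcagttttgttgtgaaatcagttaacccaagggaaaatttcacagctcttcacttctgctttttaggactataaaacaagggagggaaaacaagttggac
Il1rn, first start site (chr2:24336610-24336859, plus strand): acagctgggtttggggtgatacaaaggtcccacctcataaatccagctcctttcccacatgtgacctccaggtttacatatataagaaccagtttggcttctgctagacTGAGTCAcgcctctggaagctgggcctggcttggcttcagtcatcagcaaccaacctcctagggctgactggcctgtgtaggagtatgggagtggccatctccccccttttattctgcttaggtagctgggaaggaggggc
*Il1a* held AP-1 letters ending 6 bases before its start and PU.1 letters ending 36 bases before it. *Il1rn* held AP-1 letters from 141 to 135 bases before its first start, and the last motif searched, the Rel-type site bound by NF-kB, once as GGGTTTTTCC, 30 to 39 bases after its second start, which is 51 to 42 bases before another start. *Il1b* held none of the 3 in the bases from 250 before to 50 after its start. Over 32851 promoters of that length, TGANTCA was found in 7.81%, GAGGAA in 28.3% and the Rel-type letters in 1.63%. Among the 14 promoters of the 10 genes, 2 held the AP-1 letters, 3 the PU.1 core and 2, which overlap, the Rel-type letters. *Casp1* and the first *Nlrp3* promoter were the others with the PU.1 core, and these matches are letters only.

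In Sham kidneys, *Il1a* and *Il1rn* were lowest in KRM, while the *Il1b* levels of the 3 populations overlapped. *Il1b* was at 1118, 1096, 965 and 1002 CPM in KRM, at 829.7, 1369.9 and 839 CPM in CD11chi Mϕ and at 1384, 532 and 805 CPM in CD11clo Mϕ. The KRM libraries lay within the range of both other populations, and the log2 fold change of KRM was -0.00 against CD11chi Mϕ (adjusted p = 0.997) and 0.18 against CD11clo Mϕ (adjusted p = 0.649). *Il1a* was at 3.37, 3.17, 2.54 and 2.72 CPM in KRM, at 11.5, 9.13 and 15.4 CPM in CD11chi Mϕ and at 24.1, 21.7 and 44.0 CPM in CD11clo Mϕ. *Il1rn* was at 2.29, 1.90, 1.89 and 1.46 CPM in KRM, at 58.0, 22.5 and 7.91 CPM in CD11chi Mϕ and at 75.8, 45.6 and 41.7 CPM in CD11clo Mϕ. For both genes every KRM library lay below every library of the other populations, and CD11clo Mϕ held the highest means. Expressed as a ratio within each library, *Il1b* reads outnumbered those of *Il1rn* 489 to 684 times in Sham KRM, against 14.3 to 106 times in CD11chi Mϕ and 11.7 to 19.3 times in CD11clo Mϕ. In bulk samples fewer cells that express a gene and less RNA per cell cannot be told apart.

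*Il1r1* did not pass the filter on low counts in any Sham comparison, so 9 of the 10 genes were tested. Against CD11chi Mϕ, 2 of 9 were called in Sham KRM, both lower, beside 5.12% of all genes tested in both directions and 4.12% lower. Their groups did not overlap, nor did those of 10.9% of all genes in that direction. *Il1a* had a log2 fold change of -2.09 ± 0.29 (SE, adjusted p = 0.0123) and *Il1rn* one of -3.99 ± 0.62 (SE, adjusted p = 0.0161). Blocking on the replicate number left neither called (adjusted p = 0.126 for *Il1a* and 0.0856 for *Il1rn*). Over all alternatives the adjusted p ranged from 6.90e-07 to 0.126 for *Il1a* and from 2.64e-08 to 0.0856 for *Il1rn*, and neither was called without KRM Sham replicate 2 or without KRM Sham replicate 4, while *Il1a* alone was called without replicate 1 or 3. Replicate 3 of Sham CD11chi Mϕ, the lowest in *Il1rn*, held 18085 CPM of 6 proximal tubule markers, against 293 and 299.6 CPM in replicates 1 and 2, whose *Il1rn* levels also differed. It was lowest in *Il1rap*, *Il18*, *Casp1* and *Nlrp3* too, and highest in *Il1a*, *Il18bp* and *Il1r1*. The part of these cells in the result was not tested, and without that library the log2 fold change of *Il1rn* was -4.42 (adjusted p = 3.25e-04).

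Against CD11clo Mϕ, 5 of 9 genes tested were called, 4 lower and 1 higher in KRM, beside 41.8% of all genes tested, 22.3% lower and 19.5% higher. None of the 5 overlapped between groups, as for 23.9% of all genes below and 24.9% above. *Il1a* (log2 fold change -3.35 ± 0.28 SE, adjusted p = 4.95e-05) and *Il1rn* (-4.87 ± 0.29 SE, adjusted p = 8.88e-06) were again lower in KRM. So was the decoy *Il1r2*, at 22.7, 19.0, 20.04 and 13.6 CPM in KRM and 51.8, 27.8 and 73.6 CPM in CD11clo Mϕ, without overlap (log2 fold change -1.45 ± 0.31 SE, adjusted p = 0.00671). The sensor *Nlrp3* was at 44.4, 56.9, 51.2 and 74.1 CPM in KRM and 89.8, 136 and 94.1 CPM in CD11clo Mϕ, again without overlap (-0.94 ± 0.21 SE, adjusted p = 0.008). One gene was higher in KRM. *Il18bp* was at 10.8, 10.1, 7.83 and 10.4 CPM against 4.86, 4.87 and 5.31 CPM, with every KRM library above (0.94 ± 0.23 SE, adjusted p = 0.0127, or 0.0712 when blocked on the replicate number). Replicate 3 of Sham CD11clo Mϕ, the highest of its group in *Il1r2* and *Il1a* and the lowest in *Il1rn*, held 5384 CPM of proximal tubule markers. Replicates 1 and 2 held 180 and 135 CPM, and the part of these cells in the result was not tested. In 1 fit over all 6 groups only *Il1a* and *Il1rn* were called. Over all alternatives the adjusted p ranged from 2.24e-21 to 0.00249 for *Il1a*, from 4.40e-50 to 0.00149 for *Il1rn*, from 5.90e-05 to 0.312 for *Il1r2*, from 2.26e-04 to 0.231 for *Nlrp3* and from 0.00539 to 0.0712 for *Il18bp*.

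Markers of other blood cells and of dissociation stress moved with these differences. The 8 neutrophil markers summed to 697 to 1634 CPM in Sham CD11clo Mϕ, 27.9 to 92.4 CPM in Sham CD11chi Mϕ and 3.35 to 7.10 CPM in Sham KRM, and the 6 monocyte markers to 4045 to 12919 CPM in Sham CD11clo Mϕ, 387 to 2235 CPM in Sham CD11chi Mϕ and 561 to 852 CPM in Sham KRM. The 8 genes of a dissociation stress list summed to 26528 to 41007 CPM in Sham KRM, above every Sham CD11clo Mϕ library at 13872 to 23799.6 CPM and overlapping Sham CD11chi Mϕ at 12920.2 to 30953 CPM. The 4 B and plasma cell markers summed to 330.1 to 420.0 CPM in KRM, 167 to 763 CPM in CD11chi Mϕ and 4.97 to 32.6 CPM in CD11clo Mϕ, and the 6 dendritic cell markers to 83.4 to 108, 342 to 1736 and 51.3 to 149 CPM. T and NK cell markers (6 genes) were at most 24.7 CPM in any Sham library. Of the neutrophil markers, 1 to 4 were at 0 in 19 of the 21 libraries. *Il1r2* and *Il1rn* are also expressed by neutrophils, and the part of any of these cells or of the stress genes in the differences was not tested. Between CD11chi Mϕ and CD11clo Mϕ from Sham kidneys, 0 of 9 genes were called by edgeR, beside 1.52% of all genes. At an unadjusted p under 0.05 there were 2 of 9, beside 17.7% of all genes, and DESeq2 called 1, beside 5.59%. The former were *Nlrp3* (-1.31, adjusted p = 0.154) and *Il1a* (-1.22, adjusted p = 0.196), whose CD11chi Mϕ libraries all lay below those of CD11clo Mϕ, as did 14.3% of all genes. DESeq2 shares, here and below, are over all genes with a p-value, without the filter on low counts. Their base holds more genes of low count than that of the edgeR shares, so the 2 are not alike.

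**Figure D2:**
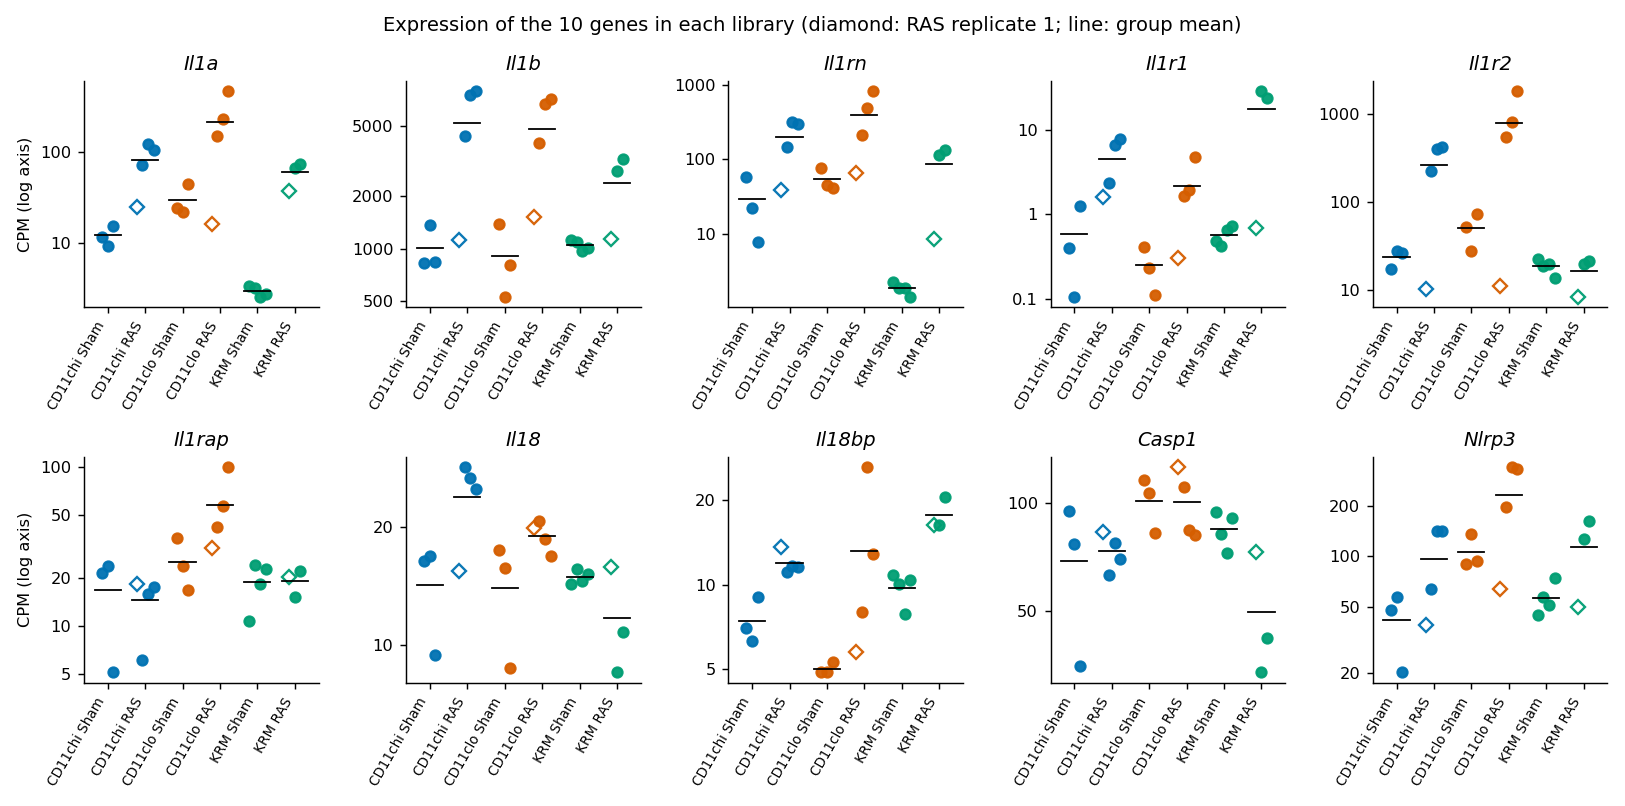
CPM (vertical axis, logarithmic, scaled for each gene) of the 10 genes in each of the 21 libraries, by population and operation (horizontal axis). Filled circles are libraries, open diamonds are RAS replicate 1 and the bars are group means. The RAS diamonds of *Il1b* lie between 1119 and 1512 CPM, while the other RAS libraries lie between 2755 and 7883 CPM.

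In KRM, both interleukin-1 ligands, the antagonist and the interleukin-18 binding protein were higher in RAS than in Sham kidneys. *Il1a* went from 3.37, 3.17, 2.54 and 2.72 CPM in Sham kidneys to 36.8, 67.6 and 74.3 CPM in RAS kidneys. *Il1rn* went from 2.29, 1.90, 1.89 and 1.46 to 8.64, 113 and 136 CPM. For both genes each RAS library lay above each Sham library, with RAS replicate 1 the lowest of the RAS libraries. *Il1b* was at 1132, 2755 and 3223 CPM in RAS kidneys, and replicate 1 was close to the highest Sham value of 1118 CPM. *Il18bp* was at 16.3, 16.3 and 20.5 CPM, against 7.83 to 10.8 CPM in Sham KRM, and here replicate 1 did not stand apart.

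Other marker lists moved with the operation in KRM. Dissociation stress genes summed to 16876 to 21626 CPM in RAS KRM, below every Sham KRM library at 26528 to 41007 CPM. T and NK cell markers summed to 303, 31.6 and 29.6 CPM in RAS replicates 1, 2 and 3, above every Sham KRM library at 1.69 to 2.61 CPM and highest in replicate 1. B and plasma cell markers summed to 349 CPM in RAS replicate 1, within the Sham KRM range of 330.1 to 420.0 CPM, and to 50.1 and 48.9 CPM in replicates 2 and 3. T and NK cell sums were also higher in RAS than in Sham libraries without overlap in CD11chi Mϕ, at 56.6 to 222 against 6.37 to 24.7 CPM, and in CD11clo Mϕ, at 11.1 to 31.9 against 4.14 to 7.63 CPM. In those populations dissociation stress sums overlapped, at 9903 to 17369.5 CPM in RAS and 12920.2 to 30953 CPM in Sham CD11chi Mϕ and at 12516 to 22152 and 13872 to 23799.6 CPM in CD11clo Mϕ, as did B and plasma cell sums, at 77.1 to 560.1 and 167 to 763 CPM in CD11chi Mϕ and at 14.6 to 70.4 and 4.97 to 32.6 CPM in CD11clo Mϕ. Without RAS replicate 1, though, every stress sum of RAS CD11chi Mϕ (9903 to 12320.4 CPM) lay below Sham. Dendritic cell markers summed to 109.5 to 167 CPM in RAS KRM and 83.4 to 108 CPM in Sham KRM. The part of these cells and of the stress genes in the RAS values of the 10 genes was not tested.

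*Il1a*, *Il1rn*, *Il1b* and *Il18bp* were the genes called in KRM, 4 of the 9 tested and all higher in RAS, beside 9.7% of all genes in both directions and 7.77% higher. They were also the 4 without overlap between groups, beside 10.5% of all genes. The median log2 fold change was 0.97 for the 9 genes and 0.02 over all genes. The log2 fold changes were 4.45 for *Il1a* ± 0.29 (SE, adjusted p = 0.0021), 5.62 for *Il1rn* ± 0.86 (SE, adjusted p = 0.019), 0.97 for *Il18bp* ± 0.19 (SE, adjusted p = 0.0297) and 1.297 for *Il1b* ± 0.33 (SE, adjusted p = 0.0487). *Il1a* was called whichever single library was left out. It was the only one of the 4 called without any one of KRM Sham replicates 1, 2 and 4 and KRM RAS replicates 2 and 3, so the count of called genes was then 1. Without KRM Sham replicate 3 it was 3. The adjusted p over all alternatives ranged from 1.16e-35 to 0.0418 for *Il1a*, from 1.80e-12 to 0.111 for *Il1rn*, from 6.51e-04 to 0.145 for *Il18bp* and from 7.71e-05 to 0.189 for *Il1b*. *Nlrp3*, at 49.5, 127 and 164 CPM in RAS KRM, had a log2 fold change of 1.12 (adjusted p = 0.0884), and *Casp1*, at 72.8, 33.6 and 41.8 CPM, one of -0.68 (adjusted p = 0.108). Replicate 1 was the RAS library nearest to Sham for both.

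With KRM RAS replicate 1 left out, 7 of the 9 genes other than *Il1r1*, which is described below, were called, beside 50.2% of all genes. The groups did not overlap for these 7, of which 5 were higher in RAS, beside 33.2% of all genes, and 2 lower, beside 34%. The log2 fold change was then 4.67 for *Il1a* (adjusted p = 2.85e-06), 6.11 for *Il1rn* (1.41e-06), 1.59 for *Il1b* (7.71e-05) and 1.00 for *Il18bp* (0.00504). *Nlrp3* was also higher (1.43, adjusted p = 9.43e-04), while *Casp1*, the protease, was lower (-1.09, adjusted p = 8.69e-04) and so was *Il18* (-0.55, adjusted p = 0.0431), at 8.51 and 10.8 CPM against 14.3, 15.7, 14.6 and 15.2 CPM. Sensor and protease of the inflammasome thus differed in direction in these 2 RAS libraries. The decoy *Il1r2* was at 19.6 and 21.4 CPM, within the Sham range of 13.6 to 22.7 CPM, and *Il1rap* at 15.4 and 22.3 CPM, within 10.8 to 24.2 CPM.

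The receptor *Il1r1* was near its detection limit in most libraries. In Sham KRM it was at 0.481, 0.423, 0.648 and 0.732 CPM (4, 4, 13 and 7 counts), and in RAS KRM at 0.688, 28.7 and 23.8 CPM (7, 331 and 260 counts). Replicates 2 and 3 were the only libraries of the 21 above 7.77 CPM. The gene did not pass the filter with all KRM libraries, and without replicate 1 it passed only through the 2 libraries in which it is high, so its levels are given with no fold and no test against Sham. The same 2 libraries held RNA of other kidney cells. The 7 distal nephron markers summed to 4485 and 3403 CPM in RAS replicates 2 and 3, against 131 CPM in RAS replicate 1 and 12.2 to 225 CPM in Sham KRM. Endothelial markers (6 genes) summed to 171 and 142 CPM against 9.26 to 19.8 CPM in Sham, and fibroblast and pericyte markers (5 genes) to 269 and 334 CPM against 16.5 to 35.5 CPM, with no marker of these 3 lists at 0 in either library. Macrophage markers summed to 2859 and 3609.9 CPM, below the Sham range of 6392 to 7246 CPM. Outside KRM, endothelial sums were 170 CPM in CD11chi Sham replicate 3 and 187 CPM in CD11clo RAS replicate 4. Fibroblast and pericyte sums were 266 CPM in CD11chi RAS replicate 2 and 320 CPM in CD11clo RAS replicate 2. All of these libraries were at or below 7.77 CPM of *Il1r1*. Endothelial cells and fibroblasts express *Il1r1* and tubule cells express *Il18*, and none of them carries the CD45 on which the cells were gated. The part of RNA from any of these cells in the RAS values of KRM was not tested.

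**Figure D3:**
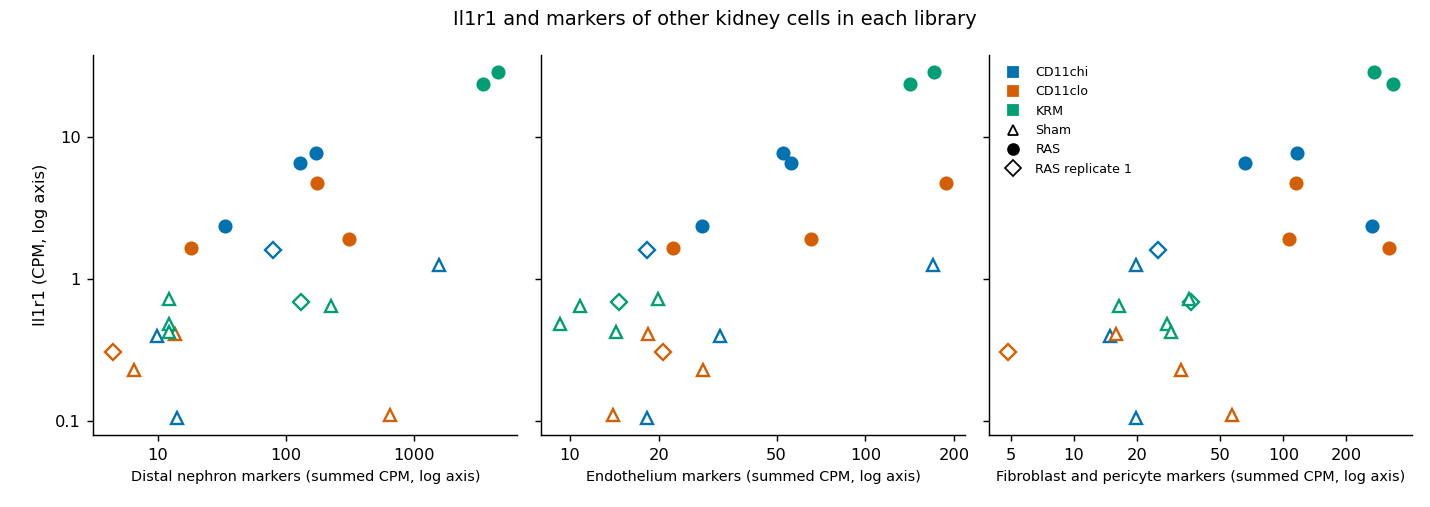
*Il1r1* (vertical axis, CPM, logarithmic) against the summed CPM of distal nephron, endothelial, and fibroblast and pericyte markers (horizontal axes, logarithmic) in each of the 21 libraries. KRM RAS replicates 2 and 3 lie at 28.7 and 23.8 CPM of *Il1r1* with the highest distal nephron sums, 4485 and 3403 CPM, while CD11chi Sham replicate 3 holds 1564 CPM of those markers at 1.26 CPM of *Il1r1*.

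In CD11chi Mϕ, no gene of the 10 was called between RAS and Sham by edgeR, beside 0% of all genes tested. *Il1r1* passed the filter in CD11chi Mϕ and in CD11clo Mϕ only through its RAS libraries, so the counts below are of the 9 others. At an unadjusted p under 0.05 there were 4 of 9, beside 9.79% of all genes, and DESeq2 called 4, beside 1.03%. The median log2 fold change of the 9 genes was 1.14, against -0.09 over all genes. *Il1b* was at 1119, 4377, 7506 and 7883 CPM in RAS kidneys, against a Sham range of 829.7 to 1369.9 CPM. *Il1r2* was at 10.4, 225, 399 and 418 CPM in RAS and 17.2, 28.1 and 26.7 CPM in Sham kidneys. In both genes replicates 2, 3 and 4 lay above all Sham libraries, and replicate 1 fell within the Sham range for *Il1b* and below it for *Il1r2*. *Il1a* was at 24.7, 71.8, 123 and 106 CPM and *Il1rn* at 39.0, 146, 320.3 and 299 CPM in RAS kidneys, of which *Il1a* lay above Sham in all 4 libraries. *Il18bp* was the other of 2 such genes among the 9, beside 4.36% of all genes. Log2 fold changes were 2.27 for *Il1b*, 3.35 for *Il1r2*, 2.65 for *Il1a* and 2.68 for *Il1rn*, each with an adjusted p of 0.508, and 1.14 for *Nlrp3* (adjusted p = 0.513), which was at 38.8, 63.9, 142 and 143 CPM in RAS and 47.5, 57.3 and 20.2 CPM in Sham kidneys. With replicate 1 left out, *Il1a* (2.94, adjusted p = 0.0394) and *Il1r2* (3.74, adjusted p = 0.0305) were called, 2 of 9 beside 0.314% of all genes, and the 7 genes other than *Il1rap* and *Casp1* lay above all Sham libraries, beside 15.4% of all genes.

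The interleukin-18 genes of CD11chi Mϕ had smaller fold changes. *Il18* was at 15.5, 28.5, 26.7 and 25.0 CPM in RAS and 16.4, 16.9 and 9.41 CPM in Sham kidneys (log2 fold change 0.67, adjusted p = 0.515), and *Il18bp* at 13.6, 11.1, 11.7 and 11.5 CPM in RAS and 6.998, 6.27 and 9.04 CPM in Sham kidneys (0.60, adjusted p = 0.544). The groups overlapped for *Il18* and not for *Il18bp*. *Casp1* was at 82.96, 63.1, 77.3 and 69.7 CPM in RAS kidneys, all between the Sham values of 35.02 and 95.2 CPM. Dendritic cell markers (6 genes) summed to 962, 1933, 4776 and 5079 CPM in the 4 RAS libraries and to 342 to 1736 CPM in Sham CD11chi Mϕ. Fibroblast and pericyte markers (5 genes) summed to 25.3, 266, 65.9 and 116 CPM in the RAS libraries, all above the 14.9 to 19.8 CPM of Sham CD11chi Mϕ. The part of either in the RAS values of CD11chi Mϕ was not tested.

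In CD11clo Mϕ, 0 of the 10 genes were called between RAS and Sham by edgeR, beside 0% of all genes. Of the 9 other than *Il1r1*, 6 were at an unadjusted p under 0.05, beside 8.96% of all genes, and DESeq2 called 1, beside 0.53%. *Il1b* was at 1512, 4015, 6636 and 7109 CPM in RAS kidneys, above every Sham library, and the median log2 fold change of the 9 genes was 1.38, against -0.02 over all genes. *Il1r2* was at 11.1, 544, 809 and 1805 CPM, *Il1rn* at 66.2, 214, 487 and 814 CPM and *Il1a* at 16.0, 150.3, 231 and 469 CPM. In these 3 genes replicate 4 was the highest RAS library and replicate 1 the lowest, within the Sham range for *Il1rn* and below it for *Il1r2* and *Il1a*. Log2 fold changes were 2.40 for *Il1b*, 3.93 for *Il1r2*, 2.85 for *Il1rn* and 2.82 for *Il1a*, with an adjusted p of 0.553 each. The accessory chain *Il1rap* was at 31.0, 42.0, 57.4 and 100.2 CPM in RAS and 35.7, 23.9 and 17.0 CPM in Sham kidneys (1.17, adjusted p = 0.553). *Nlrp3* was at 64.2, 198, 344 and 335 CPM (1.13, adjusted p = 0.556) and *Il18bp* at 5.77, 7.99, 26.3 and 12.9 CPM (1.38, adjusted p = 0.553), whose replicate 3 stood highest. *Il1b* and *Il18bp* were the 2 genes with all RAS libraries above Sham, beside 4.46% of all genes.

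Leaving replicate 1 out of CD11clo Mϕ gave 0 calls by edgeR among the 10 genes and 0% over all genes, with 7 of the 9 at an unadjusted p under 0.05, beside 13.7% of all genes. The other 3 RAS libraries then lay above all Sham libraries in 7 of the 9 genes, beside 11.9% of all genes. The exceptions were *Il18*, at 19.9, 20.8, 18.7 and 16.9 CPM in RAS and 17.5, 15.8 and 8.73 CPM in Sham kidneys (0.44 with all libraries, adjusted p = 0.612), and *Casp1*, at 126, 111, 84.0 and 81.5 CPM in RAS and 116, 106 and 82.5 CPM in Sham kidneys. *Il1r1* was at 0.309, 1.67, 1.92 and 4.74 CPM in RAS CD11clo Mϕ and at 0.414, 0.232 and 0.111 CPM in Sham, the latter 4, 2 and 1 counts. In CD11chi Mϕ it was at 1.59, 2.38, 6.62 and 7.77 CPM in RAS and 0.400, 0.106 and 1.26 CPM in Sham kidneys, the latter 4, 1 and 10 counts, and the 2 highest RAS libraries, 56 and 64 counts, were those with the highest dendritic cell markers. With so few counts in the Sham libraries no fold is given for it here. Neutrophil markers summed to 1581 to 2427 CPM in RAS CD11clo Mϕ and 697 to 1634 CPM in Sham CD11clo Mϕ. Fibroblast and pericyte markers summed to 4.84, 320.4, 107 and 115 CPM in its RAS libraries against 15.9 to 57.0 CPM in Sham, and dendritic cell markers to 83.3, 235, 287 and 376 CPM against 51.3 to 149 CPM. In both lists replicates 2, 3 and 4 lay above all Sham libraries. Endothelial markers summed to 20.6, 22.3, 65.6 and 187 CPM against 13.9 to 28.2 CPM in Sham CD11clo Mϕ, highest in replicate 4, which was also the highest RAS library in *Il1a*, *Il1rn*, *Il1r1*, *Il1r2* and *Il1rap*. Macrophage markers summed to 3986, 3989, 6770.3 and 4860.3 CPM, all above the 3312 to 3958 CPM of Sham CD11clo Mϕ. The part of these cells in the RAS values of CD11clo Mϕ was not tested.

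**Figure D4:**
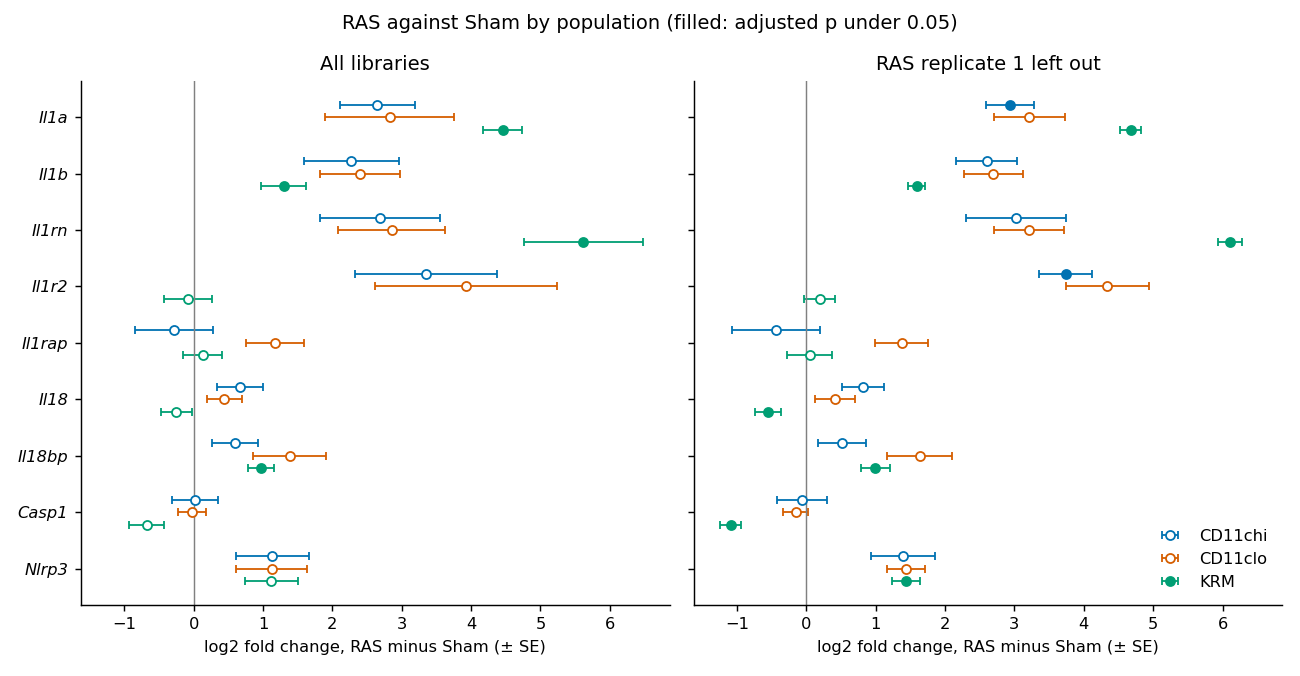
Log2 fold change of RAS minus Sham (horizontal axis, error bars are 1 SE) for 9 of the 10 genes (vertical axis) in CD11chi Mϕ (blue), CD11clo Mϕ (orange) and KRM (green), with all libraries (left) and with RAS replicate 1 left out (right). Filled points have an adjusted p under 0.05, which are 4 KRM points on the left and 7 KRM and 2 CD11chi Mϕ points on the right. *Il1r1* is not drawn because no fold is given for it.

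Whether the response to RAS differed between populations was tested as an interaction. With all libraries 0 genes were called by edgeR for KRM minus CD11chi Mϕ, beside 0% of all genes. At an unadjusted p under 0.05 there were 4, beside 21.2% of all genes, and DESeq2 called 1, beside 5.72%. For KRM minus CD11clo Mϕ 0 were called as well, beside 0.245%, with 2 at an unadjusted p under 0.05, beside 23.7%, and 1 by DESeq2, beside 6.44%. *Il1r2* had the largest differences, with log2 values of -3.49 against CD11chi Mϕ (adjusted p = 0.116) and -4.11 against CD11clo Mϕ (adjusted p = 0.115). *Il1rn* differed the other way, by 2.88 and 2.71 (adjusted p = 0.191 and 0.183). When RAS replicate 1 was left out of every population, *Il1r2* (-3.58, adjusted p = 0.00451), *Il1rn* (3.07, adjusted p = 0.0448), *Il1a* (1.69, adjusted p = 0.0276) and *Il18* (-1.39, adjusted p = 0.0424) were called against CD11chi Mϕ, beside 7.81% of all genes. Against CD11clo Mϕ they were *Il1r2* (-4.22, adjusted p = 0.00376), *Il1rn* (2.87, adjusted p = 0.0117) and *Casp1* (-0.96, adjusted p = 0.034), beside 17%. Both interactions use the same KRM libraries. By edgeR, *Il1r2* was thus called in both without RAS replicate 1 and in neither with it, while it was the gene that DESeq2 called in each with all libraries (adjusted p = 0.0172 and 0.0375). Removing CD11chi RAS replicate 1 alone (adjusted p = 0.0125) or CD11clo RAS replicate 1 alone (adjusted p = 0.0267) also gave its call, and removing KRM RAS replicate 1 alone gave 2 calls against CD11clo Mϕ, *Il1rn* and *Casp1*, beside 16.1% of all genes.

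Within a library, the excess of *Il1b* over *Il1rn* was smaller in KRM from RAS than from Sham kidneys. Reads of *Il1b* outnumbered those of *Il1rn* 23.8 and 24.4 times in KRM RAS replicates 3 and 2, 23.4 to 30.0 times in the 4 CD11chi Mϕ libraries and 8.73 to 22.8 times in the 4 CD11clo Mϕ libraries. KRM RAS replicate 1 stood apart from both, at 131 times, below the Sham KRM values given above. The ratio of *Il1b* to *Il1a* was also lower, at 332 to 379.6 times in Sham KRM and 30.7, 40.7 and 43.4 times in RAS KRM. These ratios are of reads, with no correction for transcript length, and describe the libraries without a test.

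**Figure D5:**
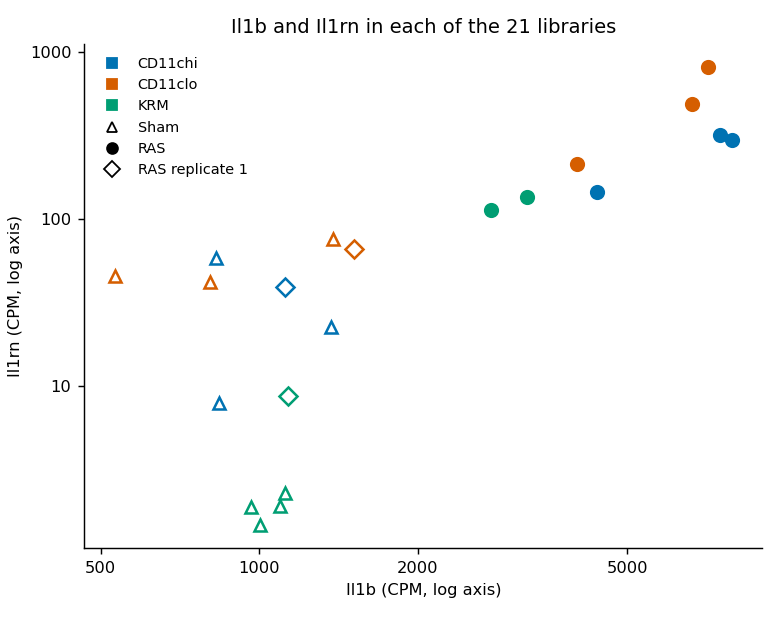
*Il1rn* (vertical axis) against *Il1b* (horizontal axis), both in CPM on logarithmic axes, in each of the 21 libraries. Triangles are Sham, filled circles RAS and open diamonds RAS replicate 1, in blue for CD11chi Mϕ, orange for CD11clo Mϕ and green for KRM. Sham KRM lie apart at 1.46 to 2.29 CPM of *Il1rn*, with *Il1b* within the range of the other Sham libraries.

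In RAS kidneys the populations were also set against each other. KRM against CD11chi Mϕ gave 0 of 10 called by edgeR, beside 9.23% of all genes. At an unadjusted p under 0.05 there were 3, beside 29.8% of all genes, and DESeq2 called 2, beside 14.5%. KRM against CD11clo Mϕ gave 0 of 10 by edgeR, beside 9.17%, with 5 at an unadjusted p under 0.05, beside 32.9%, and 4 by DESeq2, beside 16.8%. Without *Il1r1* the latter counts were 4 and 3. *Il1r2* had log2 fold changes of -3.92 ± 1.08 against CD11chi Mϕ (SE, adjusted p = 0.0574) and -5.55 ± 1.48 against CD11clo Mϕ (SE, adjusted p = 0.0547). *Il1rap* and *Casp1* were among 3 genes, with *Il18*, whose KRM libraries all lay below the CD11clo Mϕ libraries, beside 17.6% of all genes, and their log2 values were -1.53 (adjusted p = 0.0583) and -0.99 (adjusted p = 0.0688). When blocked on the replicate number, *Il1r1* alone was called against CD11clo Mϕ, at a log2 fold change of 3.42 (adjusted p = 0.0415, against 3.08 and 0.117 without it). That value rests on 3 to 39 counts in each CD11clo Mϕ library and on the KRM libraries with the other cells' markers given above.

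Without RAS replicate 1 of each population, 5 genes were called against CD11chi Mϕ, beside 30.2% of all genes. These were *Il1r2* (-3.99, adjusted p = 0.00131), *Il18* (-1.39, adjusted p = 0.011), *Il1b* (-1.05, adjusted p = 0.0492), *Casp1* (-0.81, adjusted p = 0.0285) and *Il1r1* (2.31, adjusted p = 0.0156). Against CD11clo Mϕ 8 were called, beside 29.1%, of which *Il1r2*, *Il1rn*, *Il1a*, *Il1rap*, *Casp1*, *Nlrp3* and *Il18* were lower in KRM by log2 fold changes of -5.70 to -0.98 (adjusted p = 0.00223 to 0.0421) and *Il1r1* higher (3.22, adjusted p = 0.00483). The *Il1r1* values rest on the 2 KRM libraries with the other cells' markers given above. Without this gene the counts are 4 and 7. With only KRM RAS replicate 1 left out, 3 and 3 were called, or 2 and 2 without *Il1r1*, beside 19.6% and 23% of all genes. Removing CD11chi RAS replicate 1 gave 2 calls against CD11chi Mϕ, beside 17.6%, and removing CD11clo RAS replicate 1 gave 1 against CD11clo Mϕ, beside 4.14%.

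Between CD11chi Mϕ and CD11clo Mϕ in RAS kidneys, *Il1rap* was the 1 gene of 10 called, beside 8.27% of all genes in both directions and 3.12% lower. It was at 18.4, 6.18, 16.1 and 17.6 CPM in CD11chi Mϕ and 31.0, 42.0, 57.4 and 100.2 CPM in CD11clo Mϕ, with all CD11chi Mϕ libraries below, as for 7.28% of all genes (log2 fold change -1.99 ± 0.43 SE, adjusted p = 0.0233). The call was lost without CD11chi RAS replicate 3 (adjusted p = 0.0729) or 4 (0.064), or without CD11clo RAS replicate 2 (0.0511) or 4 (0.0666), and over all alternatives the adjusted p ranged from 1.75e-04 to 0.0729. *Nlrp3* had a log2 fold change of -1.29 (adjusted p = 0.174), and of -1.33 (adjusted p = 0.0434) with RAS replicate 1 of both left out, which gave 2 calls beside 14.4% of all genes.

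Other genes of the pathway, 38 in all, were grouped as 11 ligands and receptors, 16 sensors, adaptors and executors, and 11 signalling genes. Between RAS and Sham, 0 were called by edgeR in CD11chi Mϕ and 0 in CD11clo Mϕ, beside 0% and 0% of all genes, and in KRM 1, beside 9.7%. Without RAS replicate 1 the counts of CD11chi Mϕ and CD11clo Mϕ were again 0. The gene called in KRM was *Txnip*, a thioredoxin-binding protein linked to NLRP3, which was lower (554 ± 161 CPM (SD, n = 3) against 1175 ± 72.7 CPM (SD, n = 4), log2 fold change -0.98, adjusted p = 0.0291). Without KRM RAS replicate 1, 18 of 26 sensor, adaptor, executor and signalling genes tested were called lower and 2 higher, beside 50.2% of all genes called in both directions. The median log2 fold change was -0.99 for sensors, adaptors and executors and -0.54 for signalling genes, beside 0.02 over all genes, in 2 libraries whose macrophage markers summed to 2859 and 3609.9 CPM against 6392 to 7246 CPM in Sham KRM. The 2 higher genes were *Casp4*, a caspase that senses lipopolysaccharide (0.96, adjusted p = 0.00306), and *Nek7*, a partner of NLRP3 (0.44, adjusted p = 0.0228), and among the lower ones were the sensors *Nlrp1b* (-1.82, adjusted p = 0.00163) and *Nlrc4* (-1.38, adjusted p = 6.51e-04). Of 7 ligands and receptors past the filter, 3 were called lower and 1 higher. *Il18rap*, a chain of the interleukin-18 receptor, was lower by the most (-1.84, adjusted p = 0.00148). The higher one was *Il33*, an alarmin of stromal and endothelial cells, at up to 12.6 CPM against 0.120 to 0.837 CPM in Sham KRM. It passed the filter only through the RAS libraries with those cells' markers, so no fold is given for it. In Sham kidneys, KRM against CD11clo Mϕ had 1 ligand or receptor higher and 1 lower of 6 tested, 4 sensors, adaptors and executors higher and 7 lower of 16, and 1 signalling gene higher and 6 lower of 11, beside the 41.8% called over all genes. The ligand or receptor called higher was *Il1rl2*, the interleukin-36 receptor, at 10.5 to 13.6 CPM in KRM and 0.580 to 1.55 CPM in CD11clo Mϕ. It passed the filter only through KRM, so no fold is given for it. The sensor *Nlrp1b* (1.51, adjusted p = 0.00259) and the ATP receptor *P2rx7* (1.505, adjusted p = 3.71e-04) were also higher in KRM.

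Lower in the same comparison were *Mefv*, which encodes the sensor pyrin, at 2.89 ± 1.34 CPM (SD, n = 4) in KRM against 92.8 ± 17.9 CPM (SD, n = 3) in CD11clo Mϕ, the interleukin-36 ligand *Il36g* (-1.48, adjusted p = 0.0462, with overlapping libraries) and *Nlrp12*, at 0 to 0.361 CPM in KRM and 1.44 to 20.4 CPM in CD11clo Mϕ. *Nlrp12* passed the filter only through CD11clo Mϕ, so no fold is given for it, but it is in the count of lower sensors above. *Mefv* was also the 1 pathway gene called in Sham between KRM and CD11chi Mϕ (-2.51, adjusted p = 0.0296) and between CD11chi Mϕ and CD11clo Mϕ (-2.49, adjusted p = 0.0424). In RAS kidneys, *Mefv* was lower in KRM than in CD11chi Mϕ (-3.17, adjusted p = 0.0132) and CD11clo Mϕ (-5.26, adjusted p = 0.011). *Il1rl1*, the interleukin-33 receptor (-2.46, adjusted p = 0.0335), and *Pycard*, the adaptor that joins NLRP3 to caspase-1 (-1.04, adjusted p = 0.0461), were also lower in RAS KRM than in CD11chi Mϕ, which made 3 lower and 0 higher of 33 pathway genes tested, beside 9.23% of all genes called. Without RAS replicate 1 they were 10 lower and 3 higher of 33, beside 30.2%. The higher ones were *Txnip* (1.42, adjusted p = 0.00746), *P2rx7* (0.86, adjusted p = 0.0284) and *Il33*, which was at 0.634 to 4.26 CPM in RAS CD11chi Mϕ. The *Il33* call rests on the 2 KRM libraries with endothelial, fibroblast and pericyte markers given above. The part of those cells in it was not tested. *Il36g* was at 49.5 ± 42.5 CPM (SD, n = 4) in RAS CD11clo Mϕ, against 1.97 ± 1.87 CPM (SD, n = 4) in CD11chi Mϕ and 1.43 ± 0.479 CPM (SD, n = 3) in KRM. Its log2 fold change for KRM against CD11clo Mϕ was -5.08 (adjusted p = 0.0348). Between CD11chi Mϕ and CD11clo Mϕ it was called lower but passed the filter only through CD11clo Mϕ, so no fold is given. *Sigirr*, a negative regulator of the receptor family, was higher in RAS CD11chi Mϕ than in CD11clo Mϕ (2.35, adjusted p = 0.00626), as was *Il1rl1* (1.78, adjusted p = 0.04), while *Mefv* was lower (-2.06, adjusted p = 0.00648). Between CD11chi Mϕ and CD11clo Mϕ in RAS there were 2 higher and 6 lower of 34 pathway genes tested, beside 8.27% of all genes called and 3.12% lower, and also 2 and 6 of 34 without RAS replicate 1, beside 14.4%. KRM against CD11clo Mϕ had 1 higher, the interleukin-18 receptor chain *Il18r1* (1.89, adjusted p = 0.0499), and 6 lower of 34, beside 9.17% of all genes called. Without RAS replicate 1 there were 0 higher and 19 lower of 34, beside 29.1%, and *Il18r1* lost its call (1.36, adjusted p = 0.105). In both RAS comparisons with CD11clo Mϕ the 34 hold *Nlrp12*, which passed the filter only through CD11clo Mϕ. It was at 9.42 to 31.0 CPM there, 0 to 2.91 CPM in RAS CD11chi Mϕ and 0 to 0.393 CPM in RAS KRM. Without RAS replicate 1 it is among the genes counted as lower in both. In the interactions with all libraries 0 of the pathway genes were called by edgeR. *Mefv* and *Nlrp12* are expressed in neutrophils and monocytes, whose markers had their highest sums in CD11clo Mϕ, and the part of such cells was not tested.

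Over the 21 libraries, the genes whose log2 CPM most resembled a member's were sought among 8884 genes with a mean log2 CPM of at least 3. They were *Nfe2l2* (0.93), *Clec4n* (0.93) and *Nfkbie* (0.92) for *Il1b* (Pearson's r), *Niacr1* (0.95), *Vps37b* (0.95) and *Ptgs2* (0.95) for *Il1rn*, *Cd52* (0.89), *Setd7* (0.88) and *Nfya* (0.88) for *Il18* and *Birc3* (0.92), *Gla* (0.92) and *Litaf* (0.92) for *Nlrp3*. *Nfkbie* and *Birc3* are targets of NF-kB, *Ptgs2* encodes the inducible cyclooxygenase, and *Niacr1* is a receptor for niacin. Within the 10 genes, *Il1a* and *Il1rn* had an r of 0.93. These values describe libraries that share 6 groups and differ in the RNA of other cells, and carry no test.

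KRM RAS replicate 1 did not hold the same values in the deposited tables. In the counts it had 8.64 CPM of *Il1rn*, 8.45 CPM of *Il1r2* and 72.8 CPM of *Casp1*, whereas its column on the log2(TPM + 1) scale had 7.07, 5.69 and 4.27. Replicates 2 and 3 had 6.87 and 7.17 on that scale for *Il1rn*, 4.75 and 4.95 for *Il1r2*, and 5.44 and 5.77 for *Casp1*. By counts, *Il1rn* of replicate 1 was thus between Sham and RAS KRM, and by the second table it was within the RAS values. The counts of KRM RAS replicate 1 correlated best, at r = 0.771, with the log2 column of KRM Sham replicate 3, below the lowest r of any other library with its own column. Which of the columns holds the library named KRM RAS replicate 1 was not settled here.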

How the data were processed

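RNA from the sorted cells was amplified (SMART-Seq v4), made into libraries (Nextera XT) and sequenced paired-end, as the labels and the study's methods state. The authors aligned reads to mm10 with the OSA aligner, annotated them with Ensembl R83 and deposited estimated counts per gene, with no pooling of replicates and no authors' comparisons in the table. The submitters' processing notes also name DESeq2, without a version. Between 9.70% and 14.2% of the values of a library were not whole, and they were rounded. Rows with the same symbol were summed, 37620 rows to 34236 symbols, with 1 row for each of the 10 genes. Estimated counts split reads between overlapping transcripts, which can shift a gene with few reads. The deposited log2(TPM + 1) table was, by the study's methods, made by the authors from gene counts by scaling to TPM and quantile normalization, and the log2 scale was inferred from its values. It holds 14020 symbols and was used for per-length levels and as an alternative. Both tables map to the 21 labelled samples by column name.

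Counts were analysed with edgeR 4.0.16 in R 4.3.3 with TMM factors, filterByExpr (at least 10 counts, 15 in total) and the quasi-likelihood test. Each comparison was fitted on its own groups, interactions on 4 groups, and p-values were adjusted by Benjamini-Hochberg over all genes tested. CPM are TMM-scaled. Scripts were tested on simulated data. Alternatives were limma 3.58.1 on the log2 table, which has a pseudocount of 1, DESeq2 1.42.0, total library size, median-of-ratios factors, no filter, 1 fit over 6 groups, the replicate number as a block, each replicate left out, and, chosen after seeing the data, RAS replicate 1 left out of every population and the log2 table without its KRM RAS column 1. Deviations of same-numbered libraries from their group means correlated at 0.246 to 0.647 in the Sham population comparisons and 0.202 to 0.470 between KRM and CD11clo Mϕ in RAS, so the number was taken to pair libraries there. In the other comparisons at least 1 pair was under 0.1.

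The 10 genes, the pathway and marker lists and the tests were chosen with earlier results of these data known. Named were all 10 genes, the 3 genes most like each of *Il1b*, *Il1rn*, *Il18* and *Nlrp3*, and at most 3 pathway genes called per comparison and direction. Promoter sequences are from RefSeq on GRCm38.p6, with all 10 genes matched.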

Additional observations from a re-analysis of the deposited data

How the results depend on the processing

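Counts below are of the 10 genes called, out of those tested, each with the percentage of all genes called in brackets. For DESeq2, and with no filter, that percentage is over a base with more genes of low count than in the main analysis. DESeq2 called 4 (1.03%) between RAS and Sham in CD11chi Mϕ, 1 (0.53%) in CD11clo Mϕ and 7 (19.4%) in KRM, 1 (5.59%) between CD11chi Mϕ and CD11clo Mϕ in Sham, 2 (14.5%) and 4 (16.8%) for KRM against CD11chi Mϕ and CD11clo Mϕ in RAS, and 1 (5.72%) and 1 (6.44%) in the interactions. With 1 fit over all 6 groups, KRM gave 1 (4.38%) against CD11chi Mϕ and 2 (23.8%) against CD11clo Mϕ in Sham, and 2 (14.7%) and 4 (12.7%) in RAS. With no filter KRM against CD11chi Mϕ in RAS gave 1 (6.66%). RAS in KRM gave 3 (7.82%) with 1 fit and 5 (18.5%) with limma on the log2 table, against 4 in the main analysis. *Il1r1*, not tested in those 4, is among the genes called for RAS in KRM by DESeq2 and in 1 fit, and without it the counts are 6 and 2. For KRM against CD11clo Mϕ in RAS they are 3 and 3 without it. Limma also gave 1 (2.77%) for KRM against CD11chi Mϕ in Sham, 1 (5.24%) for KRM against CD11clo Mϕ in RAS and 3 (10.4%) for the interaction of KRM and CD11clo Mϕ. Without KRM RAS column 1 it gave 8 (52.5%) for RAS in KRM, 1 (17%) and 4 (25%) for KRM against CD11chi Mϕ and CD11clo Mϕ in RAS, and 4 (28%) for that interaction, or 7, 1, 3 and 3 without *Il1r1*. Leaving RAS replicate 1 out of every population gave 5 (30.2%), 8 (29.1%) and 2 (14.4%) for the RAS comparisons of KRM with CD11chi Mϕ, KRM with CD11clo Mϕ and CD11chi Mϕ with CD11clo Mϕ, and 4 (7.81%) and 3 (17%) for the interactions. Without *Il1r1* the first 2 of these counts are 4 and 7.

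Adding the replicate number as a block gave 0 (0.718%) for KRM against CD11chi Mϕ in Sham and 1 (8.48%) for KRM against CD11clo Mϕ in RAS, where the numbers pair the libraries. Where they share only a number, the block gave 1 (0.327%) for RAS in KRM and 2 (10.2%) for CD11chi Mϕ against CD11clo Mϕ in RAS. In no comparison of the latter kind, RAS against Sham included, did every library correlate best with its own number. In KRM against CD11clo Mϕ in Sham, a paired comparison, all 3 did. In each of the other comparisons taken as paired, at least 1 library correlated best with another number, so this measure does not separate the kinds. Apart from *Il18bp* between KRM and CD11clo Mϕ in Sham, the block changed no other call among the paired comparisons.

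Leaving out 1 replicate gave 0 to 2 calls for RAS in CD11chi Mϕ, 0 to 0 in CD11clo Mϕ and 1 to 8 in KRM, where the 8, found without RAS replicate 1 (50.2%), hold *Il1r1*, which passed the filter only through RAS libraries. In Sham it gave 0 to 2 for KRM against CD11chi Mϕ, 5 to 6 for KRM against CD11clo Mϕ and 0 to 0 for CD11chi Mϕ against CD11clo Mϕ, and in RAS 0 to 3, 0 to 3 and 0 to 1. The counts of 3 in RAS, found without KRM RAS replicate 1, are 2 without *Il1r1*. The interactions gave 0 to 1 for CD11chi Mϕ and 0 to 2 for CD11clo Mϕ. Over all fold changes of the 10 genes tested in the main analysis and all alternatives, 1525 kept direction and side of the threshold, 41 lost and 84 gained the call in the same direction, and 71 changed direction, with an adjusted p of 0.32 or above in each. Scaling by total library size moved the median log2 fold change of all genes in the KRM comparisons with CD11chi Mϕ in RAS from 0.03 to 0.26 and with CD11clo Mϕ from 0.06 to 0.27, and in the interactions from 0.09 to 0.26 and from 0.02 to 0.21, with the count of calls at 0 in all 4.

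The log2 values that changed direction lay between -0.33 and 0.72. With total library size they were -0.045 for *Casp1* in RAS in CD11chi Mϕ, 0.019 for *Il1b* in KRM against CD11chi Mϕ in Sham, 0.18 for *Nlrp3* in the interaction with CD11chi Mϕ, and 0.15 for *Nlrp3* in the interaction with CD11clo Mϕ. With no filter they were 0.031 for *Il1b* in KRM against CD11chi Mϕ in Sham. With 1 fit they were 0.045 for *Il1b* in KRM against CD11chi Mϕ in Sham. With the replicate block they were 0.059 for *Casp1* in RAS in CD11clo Mϕ, 0.058 for *Il1b* in KRM against CD11chi Mϕ in Sham, 0.084 for *Il18bp* in CD11chi Mϕ against CD11clo Mϕ in RAS, 0.23 for *Nlrp3* in the interaction with CD11chi Mϕ, and 0.41 for *Nlrp3* in the interaction with CD11clo Mϕ. With limma they were 0.052 for *Il1rap* in RAS in CD11chi Mϕ, 0.0065 for *Casp1* in RAS in CD11clo Mϕ, 0.44 for *Il1r2* and -0.28 for *Il1rap* in RAS in KRM, 0.22 for *Il1b* in KRM against CD11chi Mϕ in Sham, 0.027 for *Casp1* in KRM against CD11clo Mϕ in Sham, 0.096 for *Il1rn* in KRM against CD11chi Mϕ in RAS, -0.29 for *Il1b* in CD11chi Mϕ against CD11clo Mϕ in RAS, -0.33 for *Il1rap* and 0.48 for *Nlrp3* in the interaction with CD11chi Mϕ, and 0.69 for *Nlrp3* in the interaction with CD11clo Mϕ. With limma without KRM RAS column 1 they were 0.15 for *Il1r2* and -0.24 for *Il1rap* in RAS in KRM, 0.40 for *Il1a* and 0.080 for *Il1rn* in KRM against CD11chi Mϕ in RAS, -0.29 for *Il1rap* and 0.51 for *Nlrp3* in the interaction with CD11chi Mϕ, and 0.72 for *Nlrp3* in the interaction with CD11clo Mϕ. With RAS replicate 1 left out of every population they were 0.027 for *Nlrp3* in the interaction with CD11chi Mϕ. Leaving out 1 replicate, those that changed ran from -0.70 to 0.030 for *Il1rap* and -0.27 to 0.32 for *Casp1* in RAS in CD11chi Mϕ, -0.16 to 0.074 for *Casp1* in RAS in CD11clo Mϕ, and -0.34 to 0.19 for *Il1r2* and -0.061 to 0.26 for *Il1rap* in RAS in KRM. They ran from -0.11 to 0.27 for *Il1b*, -0.27 to 0.47 for *Il1rap*, -0.17 to 0.16 for *Il18* and -0.035 to 0.57 for *Casp1* in KRM against CD11chi Mϕ in Sham, -0.083 to 0.65 for *Il1b* and -0.20 to 0.27 for *Il18* in KRM against CD11clo Mϕ in Sham, and -0.16 to 0.27 for *Il18* and -0.045 to 0.66 for *Il1b* in CD11chi Mϕ against CD11clo Mϕ in Sham. They ran from -0.040 to 0.63 for *Nlrp3* in KRM against CD11chi Mϕ in RAS, -0.19 to 0.45 for *Il1b* and -0.40 to 0.43 for *Il18bp* in CD11chi Mϕ against CD11clo Mϕ in RAS, and -0.45 to 0.28 for *Nlrp3* in the interaction with CD11chi Mϕ. They ran from -0.44 to 0.27 for *Nlrp3* and -0.72 to 0.056 for *Il18bp* in the interaction with CD11clo Mϕ. The causes of these changes were not tested. With 3 or 4 libraries a group, RNA of other kidney cells in some, and RAS replicate 1 near Sham, a gene not called may still differ.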
